A study of Mus musculus with 4 samples.

Results

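The genes of RNA splicing factors were examined for H3K27ac, a histone acetylation found at promoters and enhancers in use. They were taken by symbol: the SR protein genes (Srsf, 11 genes), the SF3a and SF3b subunit genes (Sf3, 9 genes), the Snrp genes of the small nuclear ribonucleoproteins (12 genes), the hnRNP genes (Hnrnp, 21 genes) and the kinase genes Clk1 to Clk4 (4 genes). This gave 57 of the 21887 protein-coding genes in the mouse annotation. Chondrocytes of C57Bl/6 mice, grown ex vivo as dense micromass cultures, were given an adenovirus that carried either Cre recombinase or GFP. The Cre culture is labelled hdac3-knockout and the GFP culture wild-type, and each gave 1 H3K27ac library with its own peak list. The comparison asks how deletion of Hdac3, a histone deacetylase gene, affects this mark. The labels give no age or number of animals and no Hdac3 allele for the cells before transduction, and call the GFP cells wild-type. There were no replicates, so every difference given here is a difference between 2 libraries and no p-value was computed.

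The Cre list held 13130 peaks and the GFP list 12873, with a median width of 194 and 198 bp. Summit pileup, the number of fragments stacked at a peak's highest point, had a median of 12 in both lists, and the genome background was 1.06 times higher in the Cre library. Chondrocyte marker genes had peaks in their neighbourhood (the gene with 10 kb on each side) in both libraries at 9 of 9 genes. All 4 endothelial and all 4 adipocyte markers had none, as did 67.6% of all protein-coding genes. Of 5 macrophage markers 1, Cd68, had GFP peaks, and of 5 osteoblast markers 1, Sp7, had peaks in both lists.

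Splicing removes introns from transcripts. The Snrp proteins are parts of the small nuclear ribonucleoproteins that recognise splice sites. SF3a and SF3b are parts of the U2 particle that binds the branch point. SR proteins bind exons and promote splicing, hnRNP proteins coat nascent transcripts and often repress splice sites, and CLK kinases phosphorylate SR proteins. These genes are expressed in nearly every cell, mostly from promoters rich in CpG dinucleotides.

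The start sites of the members can be read beside the peaks. RefSeq windows of the GRCm38.p6 assembly (mm10 coordinates) were found for 50 members, with 67 start sites. Clk1, Hnrnpll, Hnrnpul2, Sf3b4, Sf3b5, Snrpb and Snrpd1 were not matched. The 250 bases before the start site are given for the gene of highest summed pileup in each family whose window lay under a peak (Sf3b3, Hnrnpa1, Srsf11 and Snrpa), and for Sf3b1, the gene of highest fold marked in the Cre list alone. They show where the acetylated stretches lie against the start, which follows the last base printed. Capitals mark the bases under a peak of either list.
Sf3b3: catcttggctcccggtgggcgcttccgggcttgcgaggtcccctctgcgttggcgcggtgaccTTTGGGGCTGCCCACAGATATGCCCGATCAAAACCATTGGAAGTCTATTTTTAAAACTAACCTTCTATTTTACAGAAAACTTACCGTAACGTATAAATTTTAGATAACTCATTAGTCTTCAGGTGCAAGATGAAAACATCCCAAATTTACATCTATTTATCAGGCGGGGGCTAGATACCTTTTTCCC
Hnrnpa1: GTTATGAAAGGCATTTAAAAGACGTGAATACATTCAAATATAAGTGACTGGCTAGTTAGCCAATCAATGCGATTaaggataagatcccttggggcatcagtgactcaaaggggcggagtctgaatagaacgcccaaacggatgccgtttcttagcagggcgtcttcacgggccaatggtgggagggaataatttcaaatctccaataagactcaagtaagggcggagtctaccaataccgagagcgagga
Srsf11: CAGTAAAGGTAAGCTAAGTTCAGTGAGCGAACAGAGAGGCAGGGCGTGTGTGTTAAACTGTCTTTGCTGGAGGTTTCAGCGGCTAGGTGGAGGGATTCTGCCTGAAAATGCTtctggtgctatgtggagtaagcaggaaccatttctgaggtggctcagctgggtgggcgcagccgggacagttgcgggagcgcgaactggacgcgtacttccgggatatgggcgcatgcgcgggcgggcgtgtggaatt
Snrpa: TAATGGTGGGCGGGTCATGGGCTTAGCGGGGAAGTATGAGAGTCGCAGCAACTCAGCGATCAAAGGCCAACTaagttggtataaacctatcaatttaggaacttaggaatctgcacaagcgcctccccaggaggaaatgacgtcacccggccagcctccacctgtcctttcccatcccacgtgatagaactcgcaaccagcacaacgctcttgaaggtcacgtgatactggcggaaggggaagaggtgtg
Sf3b1: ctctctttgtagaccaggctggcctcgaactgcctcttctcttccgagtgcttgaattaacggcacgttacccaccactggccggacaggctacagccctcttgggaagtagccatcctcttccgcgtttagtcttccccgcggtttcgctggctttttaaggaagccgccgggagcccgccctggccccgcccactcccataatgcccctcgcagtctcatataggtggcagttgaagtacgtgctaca
These are the minus strand of chr8:110846804-110847053 for Sf3b3, chr3:158031749-158031998 for Srsf11, chr7:27196272-27196521 for Snrpa and chr1:55027479-55027728 for Sf3b1, and the plus strand of chr15:103240147-103240396 for Hnrnpa1.

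Sf3b3 carried its peak directly before the start site, and 174 of the 250 bases lay under peaks of both lists. At Hnrnpa1 the peaks of both lists covered 59 bases in common at the far end of the stretch and left the bases next to the start outside. The Srsf11 stretch belongs to the inner of its annotated starts and was under a GFP peak over 112 bases and under no Cre peak. The Snrpa stretch was under a Cre peak over 72 bases and under no GFP peak. No peak reached the Sf3b1 stretch: its 3 Cre peaks near the start lay downstream, with summits 218, 598 and 946 bp into the gene.

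Sequence motifs were searched on both strands of the whole windows, from 250 bases before to 50 after the start. CCGGAAG, a core recognised by ETS factors, was in 32.8% of the 67 member windows and in 11.6% of 21263 windows of protein-coding genes. The GC box GGGCGG was in 68.7% and 46.2%, CCAAT in 44.8% and 38.2%, and the TATA box TATAAA in 11.9% and 12.6%. The E-box CACGTG was in 11.9% and 7.84%, the cyclic AMP element TGACGTCA in 4.48% and 2.23%, the YY1 motif AAGATGGC in 2.99% and 3.05%, and the NRF1 palindrome in 1.49% and 1.33%. None of these motifs contains another. Member windows had a median of 26 CpG dinucleotides, against 13 over all windows. By family the median was 35 for Srsf, 30 for Clk, 27.5 for Hnrnp, 23 for Sf3 and 18 for Snrp. In the printed stretches, Hnrnpa1 had 4 CCAAT matches and 2 GC boxes, and Snrpa had 2 CACGTG matches and the TGACGTCA match. Sf3b3 and Srsf11 each had 1 CCGGAAG and Sf3b1 had 2 GC boxes, all on the strand opposite to the gene. Sf3b3 also held TATAAA and CCAAT, Srsf11 the NRF1 palindrome and a GC box, and Snrpa TATAAA and a GC box. A match describes the letters only.

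Acetylation at the gene ends was common among the splicing factor genes in both cultures. A gene-end peak lies at least partly within 1 kb of an annotated start or end of the gene. Of the 57 members, 34 (59.6%, exact 95% interval 45.8 to 72.4) had one in either list, against 18.3% of all protein-coding genes. Peaks of both lists were found at 21 members (36.8%, 24.4 to 50.7, against 9.26% of all genes), of the Cre list alone at 8 (14.0%, against 4.28%) and of the GFP list alone at 5 (8.77%, against 4.77%). The Cre list thus marked 29 members (50.9%, 37.3 to 64.4, against 13.5% of all genes) and the GFP list 26 (45.6%, 32.4 to 59.3, against 14.0%), and these intervals overlap widely. A set of 106 other splicing genes gave 54.7% (44.8 to 64.4) in either list, 39 proteasome genes 46.2% (30.1 to 62.8) and 80 ribosomal protein genes 78.8% (68.2 to 87.1). The splicing factor genes lay above the share of all genes as these lists of widely expressed genes did, and no test was made between the lists.

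**Figure D1:**
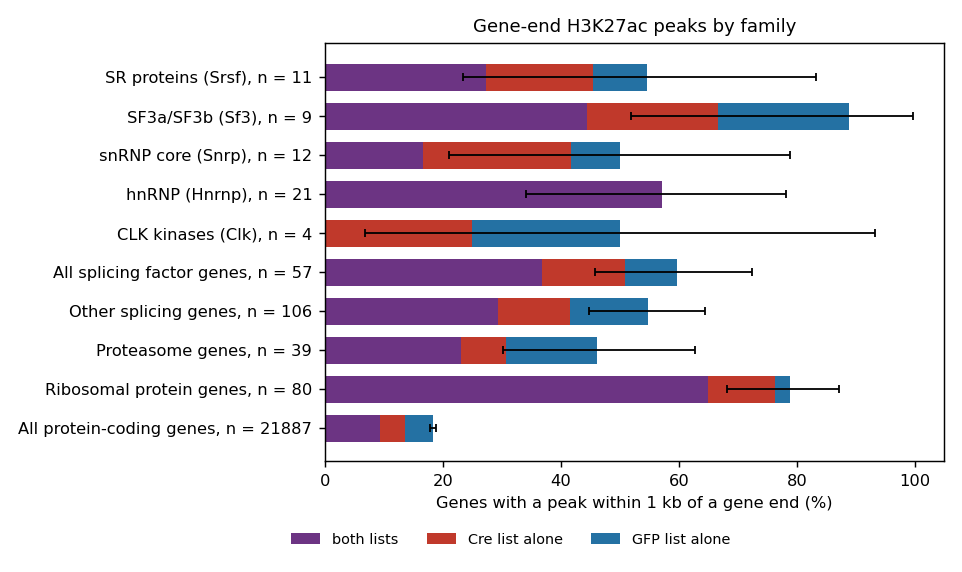
Percentage of genes (x axis) with an H3K27ac peak within 1 kb of a gene end, for each family, all splicing factor genes, 3 comparison lists and all protein-coding genes (rows). Stacked bars give peaks in both lists, in the Cre list alone and in the GFP list alone, and whiskers the exact 95% interval of the total; every Hnrnp bar segment is shared, and the total for all members is 59.6% against 18.3% of all genes.

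By family, all 12 Hnrnp genes with a gene-end peak had one in both lists (100%, 73.5 to 100). Windows around every annotated start were tried instead, for the 19 Hnrnp genes with such a start. They gave 12 in both lists (63.2%), 1 in Cre alone (5.26%) and 2 in GFP alone (10.5%). Over all protein-coding genes with such a start the shares were 10.1%, 4.47% and 5.12%. The Sf3 family had 4 shared, 2 Cre and 2 GFP genes among 9, the Srsf family 3, 2 and 1 among 11, and the Snrp family 2, 3 and 1 among 12. No Clk gene was shared. The intervals of the shared share overlap between Hnrnp (73.5 to 100), Sf3 (15.7 to 84.3), Srsf (11.8 to 88.2) and Snrp (4.33 to 77.7), and no difference between families was tested. Of genes with a gene-end peak in either list, 61.8% of members (43.6 to 77.8) and 50.6% of all genes were marked in both. Members with higher pileup were more often marked in both lists. With a highest pileup of at least 14, which is 2 times the lowest called pileup of 7, 20 of 22 members (90.9%, 70.8 to 98.9) were marked in both lists, and below that 1 of 12 (8.33%, 0.211 to 38.5). The exceptions above it were Sf3b1 and Clk1. Over all genes the shares were 75.4% of 2023 and 25.3% of 1984. The level of 14 was chosen after the values were seen, and a gene called in both lists has 2 chances to reach it. The 13 genes marked in a single list had pileups from 8 to 19, and 11 of them were below 14.

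**Figure D2:**
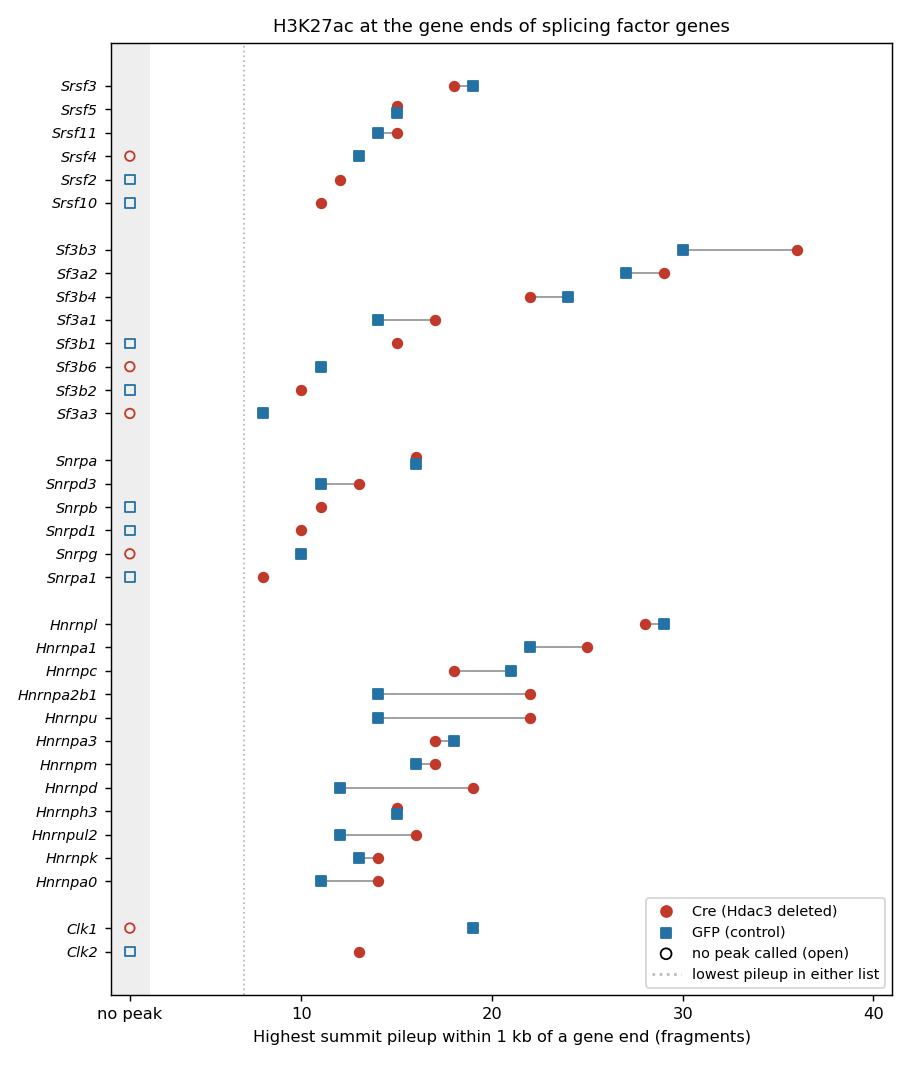
Highest summit pileup in fragments (x axis) within 1 kb of a gene end for the 34 splicing factor genes with a gene-end peak (rows, grouped by family); circles are the Cre library and squares the GFP library. Open symbols in the grey strip mark no called peak, and shared genes sit at 11 to 36 fragments while genes of a single list sit at 8 to 19.

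At the 21 shared genes no difference in height exceeded counting error. The Cre pileup ran from 13 to 36 and the GFP pileup from 11 to 30, and the median ratio of Cre to GFP, after division by the background ratio of 1.06, was 1.01, against 0.941 over the 2026 shared genes of the genome. The ratio ran from 0.807 at Hnrnpc to 1.49 at Hnrnpd, and the counting interval of every ratio took in 1. No member reached a ratio of 1.5 in either direction; over all shared genes 4.79% were at least 1.5 times higher in Cre and 10.1% at least 1.5 times higher in GFP. Before scaling, 13 members had the higher pileup in Cre, 5 in GFP and 3 were equal. These ratios set the highest peak of each list side by side, also where they lie at different places. Over the 20 members with overlapping gene-end peaks, taking the highest overlapping pair of each, the median scaled ratio was 1.12 and 15 were higher in Cre, against 13 of 21 with the highest peaks after scaling. The intervals cover counting error only, since fragments of an amplified library are not independent molecules.

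Among the SF3a and SF3b genes, Sf3b3 had the highest gene-end pileup of all members in both lists. Sf3b3, an SF3b scaffold subunit (chromosome 8, 110810491 to 110846806), had a start-site pileup of 36 in Cre and 30 in GFP, with a ratio of 1.13 (0.677 to 1.90). The fold enrichments given by the authors for these peaks, 8.98 and 10.8, rank each within its own list. The expected pileup at these peaks was 3.12 in Cre and 1.86 in GFP, which the ratio does not take into account. Sf3a2, an SF3a subunit (chromosome 10, 80798735 to 80804922), had pileups of 29 and 27, and the peaks of both lists lay on either side of the start, with the highest summits at −317 bp in Cre and −323 bp in GFP. Sf3b4 had 22 and 24. Sf3a1, another SF3a subunit, had 17 and 14, but its ends differed. The Cre value of 17 came from the 3′ end of the gene and the GFP value of 14 from a peak 437 bp after the start, where the Cre list had none.

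Sf3b1, which contacts the branch point and is the target of splicing inhibitors (chromosome 1, 54985169 to 55027501), had 3 gene-end peaks in the Cre list with a highest pileup of 15 and a fold of 7.97. A further Cre peak lay 1476 bp after the start, and the GFP list had no peak anywhere in the neighbourhood. Sf3b2 was marked in the Cre list alone too, at its 3′ end within 1 kb of Pacs1 (pileup 10), with an interior peak of pileup 18 and no GFP peak in the neighbourhood. Sf3a3 (pileup 8) and Sf3b6 (pileup 11) were marked in the GFP list alone, close to the start. Sf3b5, a small SF3b subunit, had no peak in either list. The family thus had single-list genes in both directions.

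The hnRNP genes with a gene-end peak carried it in both cultures. Hnrnpl, a regulator of alternative exons (chromosome 7, 28808546 to 28822268), had gene-end pileups of 28 in Cre and 29 in GFP (ratio 0.909, 0.521 to 1.58), at summits −2207 and −2227 bp from the nearest start in the promoter table. Hnrnpa1 (chromosome 15, 103239943 to 103246698), whose product represses splice sites, had 25 and 22 (1.07, 0.579 to 1.99). Hnrnpc, which binds uridine tracts, had 18 and 21, and Hnrnpa3 17 and 18. At none of these 4 genes did the libraries differ by more than 3 fragments.

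Wider gaps were seen at 3 hnRNP genes, all with the higher value in Cre. Hnrnpa2b1 and Hnrnpu, which encodes a nuclear scaffold protein, each had 22 fragments in Cre and 14 in GFP (ratio 1.48, 0.724 to 3.13). Hnrnpd, the AU-rich element binding protein AUF1, had 19 and 12 (1.49, 0.687 to 3.37). These ratios are scaled by the genome background alone. At the highest summits the expected pileup was 1.56 in Cre and 0.949 in GFP at Hnrnpu. It was 1.73 and 0.949 at Hnrnpd, and 1.01 and 0.949 at Hnrnpa2b1. The folds given by the authors were 8.99 and 7.70 at Hnrnpu, 7.33 and 6.67 at Hnrnpd, and 11.5 and 7.70 at Hnrnpa2b1. At Hnrnpa2b1 the highest Cre summit lay at −383 bp from the start, and 2 GFP peaks of equal pileup had summits 212 and 767 bp after it. Hnrnpul2 had 16 and 12, Hnrnpa0 14 and 11, Hnrnpm 17 and 16, Hnrnpk 14 and 13, and Hnrnph3 15 and 15. None of these differences exceeded counting error.

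Of the 11 SR protein genes, 6 had a gene-end peak in either list (54.5%, 23.4 to 83.3, against 18.3% of all genes). In both lists 3 were marked (27.3%, 6.02 to 61.0, against 9.26% of all genes), an interval that takes in the share of all genes. At these 3 genes the median pileup was 15 in each library, the same as over all shared genes. Srsf3 (chromosome 17, 29032660 to 29043372), a small SR protein that regulates its own splicing, had the highest, with 18 fragments in Cre and 19 in GFP. Srsf5 had 15 in both, with summits 2 bp apart, and Srsf11 had 15 and 14. Srsf2, an SR protein that binds exonic enhancers (chromosome 11, 116849897 to 116853675), was marked in the Cre list alone by 3 gene-end peaks, with a highest pileup of 12, and had 8 Cre peaks and 1 GFP peak in its neighbourhood. Its end lies within 1 kb of Mettl23, and some flank peaks lay at the ends of Jmjd6 and Mettl23. Srsf10 (Cre pileup 11) and Srsf4 (GFP pileup 13) were the other single-list genes. Srsf4 also had a Cre peak 725 bp after an internal start. Srsf1, the founding SR protein, had no gene-end peak, but a GFP peak 550 bp and a Cre peak 1666 bp after an annotated start, both of pileup 9. Srsf6, Srsf7, Srsf9 and Srsf12 had no peak in either list.

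Of the 12 Snrp genes, 2 were marked in both lists (16.7%, 2.09 to 48.4, against 9.26% of all genes). The interval takes in the share of all genes. Snrpa, of the U1 particle, had a pileup of 16 in both libraries, but at different places: the peaks did not overlap, 961 bp lay between them, and one was before and one after the start. Snrpd3, an Sm core protein, had 13 and 11 with overlapping peaks. Snrpb (pileup 11) and Snrpd1 (pileup 10), of the Sm core, and Snrpa1 (pileup 8), of the U2 particle, were marked in the Cre list alone. Snrpg (pileup 10) was marked in the GFP list alone. Snrpc, Snrpd2, Snrpf and the imprinted gene Snrpn had no peak in either list. Snrpb2 and Snrpe had peaks of both lists away from their ends.

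Among the kinases, Clk1 (chromosome 1, 58411988 to 58424088) had 3 GFP peaks at its upper end, at 58423145 to 58423419, 58423508 to 58423655 and 58423851 to 58424037, with pileups of 12, 10 and 19 and a highest fold of 10.3. The Cre list had no peak in the Clk1 neighbourhood. Its pileup of 19 was the highest of any member marked in a single list. Clk2 had 1 Cre peak 613 bp after its start (pileup 13). Clk3 had Cre peaks 373 and 1160 bp after an annotated start, and Clk4 had 1 Cre peak 1712 bp after its start, all beyond the gene-end window. Clk2 and Clk3 also had 1 GFP flank peak each. In all, 4 Cre and 5 GFP peaks lay around the 4 kinases, and none overlapped a peak of the other list. Around all protein-coding genes 41.5% of Cre and 41.4% of GFP peaks did. The intervals for the kinases (0 to 60.2% and 0 to 52.2%) take in these shares.

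In all, 12 members had no peak in either list, among them Hnrnpdl, Hnrnph2 and Hnrnpa1l2-ps2, an hnRNP A1 copy that the annotation counts as protein-coding. Over all genes 67.6% had none. Some members missed the gene-end count because an internal start site was marked. An alternative added after the data were seen took windows of 1 kb around every annotated start of 50 members. It marked 20 in both lists (40.0%), 7 in Cre alone (14.0%) and 7 in GFP alone (14.0%). Over 17492 protein-coding genes with such a start the shares were 10.1%, 4.47% and 5.12%. Hnrnpul1 had a Cre peak of pileup 17 with its summit at −313 bp, and Hnrnph1 (GFP pileup 12) and Hnrnpr (GFP pileups 8 and 11) had GFP peaks at theirs. Hnrnpr held 6 GFP interior peaks and 1 Cre interior peak. Hnrnpf was marked in both lists at an internal start, with 18 fragments in each.

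Few summits fell on the start sites, as over all genes. Within 1 kb of a start, 2 of 44 Cre summits (4.55%, 0.555 to 15.5) and 2 of 45 GFP summits (4.44%, 0.543 to 15.1) lay within 100 bp of it, against 5.38% and 5.35% for all protein-coding genes. Downstream lay 25 summits in each library, at a median of 549 bp in Cre and 441 bp in GFP. Upstream lay 17 and 18, at medians of −483 and −465.5 bp. Both member shares within 100 bp have intervals that take in the share of all genes.

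**Figure D3:**
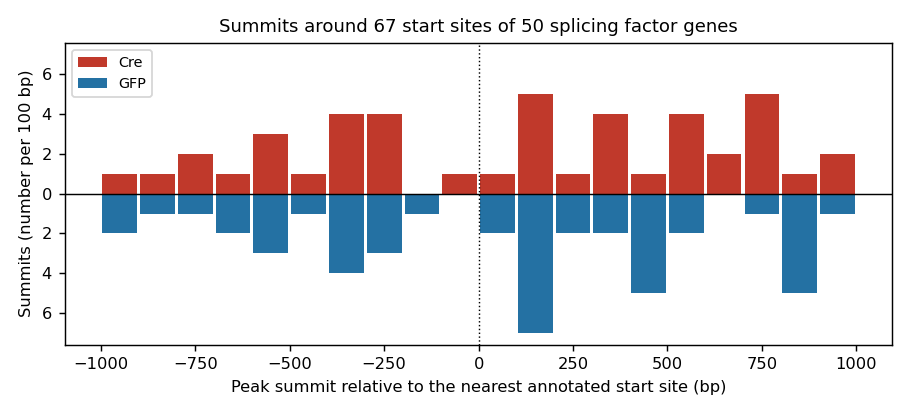
Number of peak summits per 100 bp (y axis, Cre upward and GFP downward) against distance from the nearest annotated start site in bp (x axis, positive into the gene) for 67 start sites of 50 splicing factor genes. Few summits of either library fall within 100 bp of the start (2 of 44 and 2 of 45).

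Around the whole set, the Cre list held more peaks, with the largest excess in the Sf3 family. The neighbourhoods held 142 Cre peaks (34963 bp) and 112 GFP peaks (26999 bp). This is a Cre share of 55.9% of peaks (49.6 to 62.1) and 56.4% of length, against 49.9% (49.2 to 50.5) and 49.5% around all protein-coding genes. Mean width was 246 and 241 bp and mean fold 6.55 and 6.97. The Sf3 genes held 53 Cre peaks (13363 bp) and 24 GFP peaks (4786 bp), so 68.8% of their peaks (57.3 to 78.9) were of the Cre list. Their mean width was 252 and 199 bp. The Cre share of peaks was 61.0% (44.5 to 75.8) for Srsf, 48.4% (30.2 to 66.9) for Snrp, 46.9% (36.6 to 57.3) for Hnrnp and 44.4% (13.7 to 78.8) for Clk. Without the Sf3 family the members had 89 Cre and 88 GFP peaks, and the Cre share of length was 49.3%. These totals add families that leaned either way. Srsf had 25 Cre and 16 GFP peaks, Hnrnp 45 and 51, Snrp 15 and 16, and Clk 4 and 5. Covered length was greater in Cre at 23 members (15.9% of all genes were so) and in GFP at 22 (16.4% of all genes).

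Sf3b3 and Sf3a1 held the largest differences. Sf3b3 had 17 Cre and 5 GFP peaks. Of these, 9 Cre peaks and 1 GFP peak were interior, covering 2060 and 188 bp, and they lay 14648 to 32433 bp after the start with Cre pileups of 9 to 14. A single Cre interior peak overlapped a GFP peak. Of all Cre peaks around the Sf3 genes 32.1% (19.9 to 46.3) did so, and 41.5% around all protein-coding genes. Sf3a1 had 17 Cre and 9 GFP peaks: 7 and 3 were interior and 8 and 4 in the flanks, 1 of them a Cre peak at the end of Tbc1d10a. All 3 of its interior GFP peaks overlapped Cre peaks. Without both genes, an alternative added after the data were seen, the Sf3 Cre share was 65.5% (45.7 to 82.1) on 19 Cre and 10 GFP peaks, an interval that takes in an even split. Peaks within a gene are not independent, so these intervals cover counting error only and run too narrow.

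**Figure D4:**
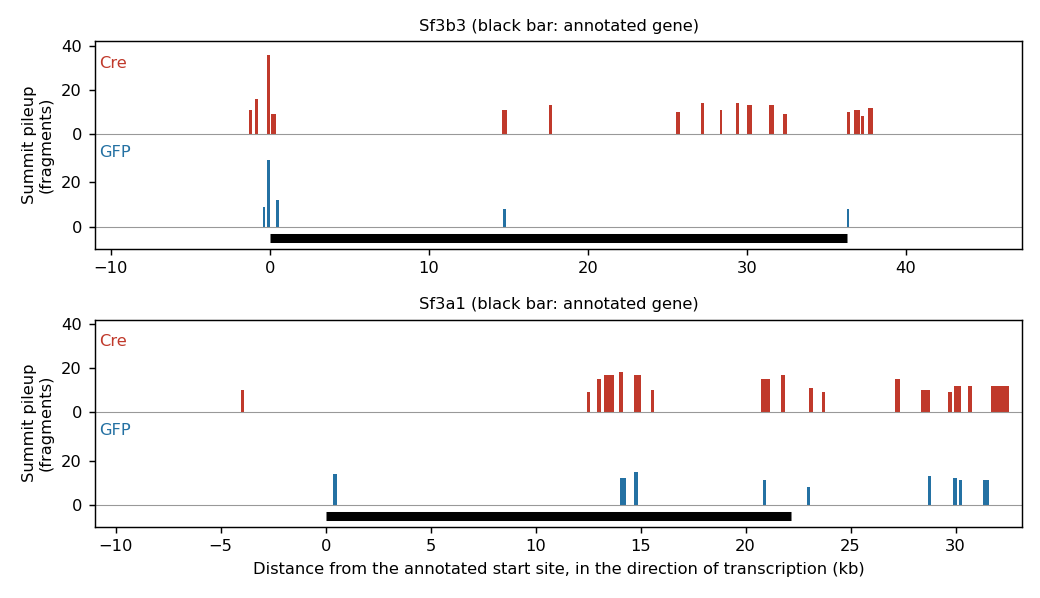
Summit pileup in fragments (y axis) of every peak around Sf3b3 and Sf3a1, by distance from the annotated start in kb (x axis, positive in the direction of transcription), with the Cre list above the GFP list and the gene as a black bar. Sf3b3 has high start-site peaks in both lists and 9 interior Cre peaks against 1 GFP peak; Sf3a1 has 7 against 3.

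By position, the gene ends held 55 Cre and 51 GFP peaks, the gene interiors 45 and 24, and the flanks 42 and 37. The Sf3 family had 18 Cre and 5 GFP interior peaks and the Hnrnp family 16 and 15. In the flanks the Sf3 family had 17 Cre and 6 GFP peaks. Of these, 6 Cre and 0 GFP peaks lay within 1 kb of the end of another protein-coding gene, and cannot be assigned to the Sf3 genes alone. Away from the gene ends the Cre share was 58.8% (50.4 to 66.8), and 59.8% (49.9 to 69.2) without peaks at the end of another protein-coding gene. The Sf3 interior and flank peaks are among these, and the share without them or over all genes was not computed. Peaks within a gene are not independent, so both intervals run too narrow. Of gene-end peaks with a known strand, 39 Cre and 41 GFP peaks lay nearest to the start of the gene and 10 and 3 to its end. The 10 Cre peaks at 3′ ends belonged to Sf3b3, Sf3a1, Sf3b2, Srsf2 and Hnrnpu.

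**Figure D5:**
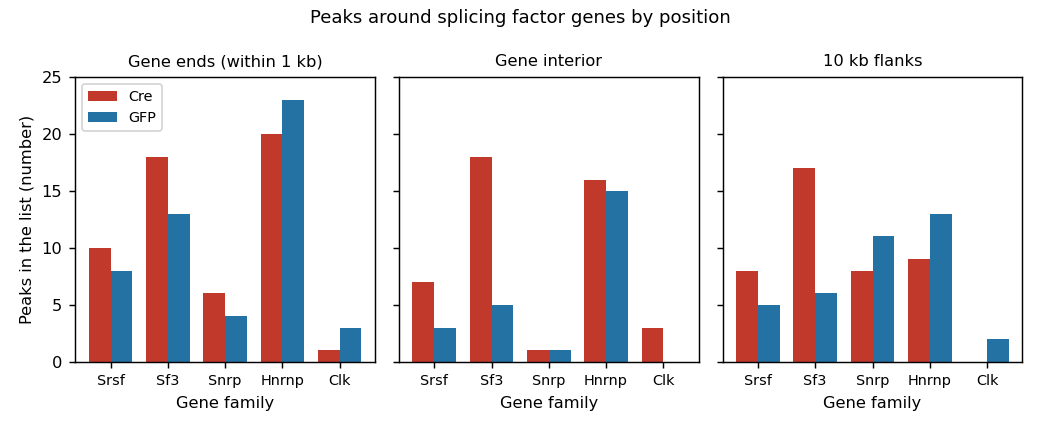
Number of peaks (y axis) in the Cre and GFP lists at gene ends, in gene interiors and in the 10 kb flanks, for each family (x axis). The Sf3 bars differ most in the interior (18 Cre and 5 GFP) and the flanks (17 and 6), while the Hnrnp bars are nearly level in the interior (16 and 15).

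Of the 5 peaks of highest fold outside the gene ends of a member, 4 in the GFP list and 2 in the Cre list lay at the end of a neighbouring gene. The other 3 Cre peaks were interior, in Sf3a1 and Sf3b2. In the flank of Hnrnpl, the peak at the end of Ech1, a fatty acid oxidation gene, had pileups of 30 in Cre and 34 in GFP and folds of 9.28 and 16.8. In the flank of Srsf10 a peak at Pnrc2, a nuclear receptor coregulator gene, had 19 and 26, and in the flank of Hnrnpu 2 peaks at Cox20 had 18 and 25 and 19 and 15. Peaks at Mia, a cartilage-derived protein gene, lay in the flank of Snrpa (17 and 20). The Sf3b2 interior peak (Cre pileup 18, fold 9.46) was called in the Cre list alone. Interior peaks of Sf3a1 (18 in Cre and 12 in GFP, and 17 in Cre and 15 in GFP) overlapped, as did a peak upstream of Hnrnpa2b1 (14 and 19).

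Gene ends shared with a neighbour limited what could be assigned. Their share over all protein-coding genes or all peaks was not computed, so the counts are not shown to be particular to the members. Of the 57 members, 27 had the end of another protein-coding gene within 1 kb, and so did 14 of the 21 shared members, 3 of the 8 Cre members and none of the 5 GFP members. Of gene-end peaks, 29 of 55 Cre and 27 of 51 GFP peaks lay within 1 kb of another gene's end. Among these pairs are Sf3b3 with Cog4, Sf3a2 with Plekhj1, and Hnrnpa1 and Hnrnpa2b1 with the heterochromatin protein genes Cbx5 and Cbx3. The Hnrnpa2b1 and Cbx3 promoters are known as a ubiquitously open chromatin element.

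The other splicing genes, a list of 106 that the symbols leave out, gave 31 genes marked in both lists, 13 in Cre alone and 14 in GFP alone. Their Cre share of peaks was 48.7% (44.0 to 53.4) on 222 Cre and 234 GFP peaks. The highest were Ddx39b, an RNA helicase gene (39 in Cre, 49 in GFP), Eftud2, a U5 GTPase gene (31 and 34), and Mbnl2, a splicing regulator gene (27 and 25). Marked in Cre alone were Lsm4 and Puf60 (both 18), Matr3 (17), Tial1 (15), Rbm17 and Magohb (both 13), Luc7l and Sart1 (both 12), Snrnp27, Ddx23 and Pcbp2 (all 11), and Khdrbs1 and Isy1 (both 9). Among those marked in GFP alone were Prpf3 (18), Usp39 (15), Prpf38b and Snrnp70 (both 14), Eif4a3 and Qk (both 12), Magoh, Prpf38a, Lsm8 and Dhx16 (all 11), Tra2b (10), Zcrb1 (9) and Prpf8 (8). The exon junction genes Magohb (Cre) and Magoh and Eif4a3 (GFP) fell on both sides. Casc3, also of the exon junction, was marked in both lists (14 and 12), and Rbm8a had no gene-end peak. Magoh had 1 Cre peak in its neighbourhood. At a ratio of 1.5, 1 shared gene, Tardbp, was higher in Cre (1.51), and 5 were higher in GFP: Rnpc3 (0.552), Ddx42 (0.554), Prpf4b (0.612), Rbm39 and Srrm1 (both 0.628). These are 3.23% and 16.1% of the 31 shared genes, against 4.79% and 10.1% over all shared genes. Pileups were 16 in Cre and 10 in GFP at Tardbp, and 17 and 29 at Rnpc3. No counting interval was computed for these ratios, so they are not shown to exceed counting error.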

How the data were processed

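H3K27ac peak lists of 1 Cre and 1 GFP library were analysed; the 2 input libraries of the series were not used here. Peaks were called per library. Per the submitters' processing notes, mm10 was the build, and the tools were SICER, Picard, BWA and bcl2fastq 1.8.4, without roles. The lists have the column order of MACS2 peak files; caller settings and control are not given in the sources used. Each deposited row gives a score, a fold enrichment (a ratio of observed to expected pileup) and −log10 p- and q-values; the deposited score is 10 times the −log10 q-value, cut to a whole number. These are the authors' values, used to describe peaks within a list. Fold and −log10 p were solved for the summit pileup; 100% of peaks gave whole numbers within 0.001. Total depth is unknown, so precision is limited by pileups of 7 to 63 fragments.

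Genes came from RefSeq GRCm38.p6. Peaks overlapping the gene with 10 kb each side were counted once; overlap meant at least 1 bp. Shares carry exact Clopper-Pearson 95% intervals. Start sites came from RefSeq promoter windows. Code (Python 3.11.15, scipy 1.17.1, pandas 2.3.3) was tested on simulated data. Members, lists and settings were chosen with earlier results of these data known. Named genes were those marked in a single list, the 2 highest of each family marked in both, those of ratio 1.5 or more, those without peaks, the 5 highest-fold peaks per library away from gene ends, and, of the other splicing genes, the single-list genes and the 3 highest (1 gene is not reported here); further genes were named after their values were seen. Stricter peak thresholds, other windows and overlaps, and members left out were tried as alternatives.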

Additional observations from a re-analysis of the deposited data

How the results depend on the processing

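Of 133 alternative values, 101 stayed within 1.5 times the main count or within the interval of the main share or ratio, or, for covered length, within the mean distance from the peak share to its interval's bounds, and 32 moved; the cause was not tested. With a −log10 q of at least 5, 2 members were marked in GFP alone and 3 Snrp genes in either list. With at least 10, 9 members were marked in both lists, 5 in Cre alone and 1 in GFP alone, and 1 Srsf, 3 Sf3, 1 Snrp and 1 Clk gene in either list; the Cre share of peaks was 62.2% for all members, 62.5% for Hnrnp and 0% for Clk (1 GFP peak). Among the top 5000 peaks, 5 members were marked in Cre alone and 2 in GFP alone, with 5 Sf3, 2 Snrp and 1 Clk gene in either list and a Srsf Cre share of 42.9%. With summits of at least 15 fragments, 12 members were marked in both and 1 in GFP alone, with 3 Srsf, 5 Sf3, 1 Snrp and 1 Clk gene, and Cre shares of 40.0% for Srsf and 57.6% for Hnrnp. A window of 2.5 kb marked all 4 Clk genes. Without the 27 members near another gene's end, 7 were marked in both and 5 in Cre alone. Without the Sf3 family the Cre share of length was 49.3%, and without the Hnrnp family 62.4%. A ratio of 1.5 was reached at 3 shared genes without depth scaling and at 2 when gene-end pileups were summed. The Sf3 Cre share of peaks ran from 65.5% (45.7 to 82.1) to 75.0% (50.9 to 91.3) over its alternatives. These were peak thresholds and the removal of Sf3b3 and Sf3a1 only. The interval took in an even split without those genes, with a −log10 q of at least 10 (39.0 to 94.0) and among the top 5000 peaks (47.8 to 80.9). The low pileups limit every single-list call, since a gene missing from a list can lie just under the caller's threshold.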
